A study of Mus musculus with 23 samples.

Results

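Among the genomic fragments that AIMS-seq can read in mouse DNA, 381 joined a CpG island to a repeat element and are described here. They were taken from 173430 fragments in the deposited count table as those on chromosomes 1 to 19, from 21 bp to under 2000 bp long, that the table marks as island and to which it gives a repeat class. The column marked 379 of them as island and shore together and 2 as island alone, and 7 more fragments of that kind lay on the X or Y chromosome. By class, 287 carried a SINE, 64 an LTR element and 30 a LINE. AIMS-seq (amplification of inter-methylated sites) cuts DNA first with SmaI, which leaves blunt ends at unmethylated CCCGGG, and then with XmaI, which cuts the sites that SmaI left. Adaptors join only the XmaI ends, so a fragment gives reads when the sites at both of its ends escaped SmaI. A read count therefore rises with methylation of both sites but is not a percentage of methylation.

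CpG islands are CpG-rich stretches at many promoters that are mostly unmethylated in normal cells. SINEs, LINEs and LTR elements are transposon copies, and most of their CpGs are methylated in somatic tissue. The flank where an island passes into the surrounding DNA, the shore, is where methylation often differs between tissues. SINEs of the mouse include the Alu-related B1, the tRNA-derived B2, B4 and ID, and the old MIR. LTR elements are relics of retroviruses, grouped here as ERV1, ERVK, ERVL, MaLR and Gypsy.

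The 23 libraries formed 9 groups. Embryonic stem cells (ESC) were 3 male or unspecified lines, CGR8 (129Sv, with a technical replicate), RD1 (129X1/SvJ) and E14Tg2 (129/Ola). Muscle precursor cells were C57BL/6J males: 1 library of never cultured cells, 1 of never cultured cells taken 3 days after cardiotoxin (CTX) injury, 2 cultures at passage 0 and 3 proliferating cultures at passage 8 to 10, called myoblasts below. The same 3 cultures, numbered 21, 26 and 27, were also put in low-serum medium for 1, 2 and 4 days to form myotubes, and cultures 26 and 27 gave the passage 0 libraries. Skeletal muscle was whole tissue of males, 2 of them 129Sv/C57BL/6J and the other C57BL/6J, and holds every cell type of muscle. No library carried an engineered allele, per the labels. ESC and precursor cells differ in strain as well as in cell type, so strain and cell type cannot be told apart between them, and muscle is of mixed strain. Libraries held 6237851 to 14696855 reads. The 2 CGR8 libraries were added and counted once. Beyond the difference in strain among the muscle samples, nothing says that the cultures or tissues came from separate animals. The p-values therefore measure the spread between these samples.

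All 381 fragments had the same layout. The annotated repeat touched exactly 1 of the 2 cut sites, with the site wholly inside the element in 338 of them, and both sites in 0. This is partly how the table annotates repeats, since 99.9% of all repeat fragments of that length had the element at a site. The annotation also gives 1 element per fragment, so a different repeat at the opposite site would not be counted. The median length was 1142 bp (87 to 1998 bp) and the median overlap with the element was 61 bp. In the 374 fragments of 200 bp or more, the 100 bp at the repeat end held a median of 2 CpGs and the 100 bp at the opposite end a median of 10. The opposite end was richer in 361, equal in 6 and poorer in 7. By gene, 328 lay in a promoter window (from 2000 bp before a start to 500 bp after it), 20 in an exon, 7 in an intron and 26 between genes, and 169 contained a transcript start. In most of them a read thus required that a site at a CpG-poor end in or touching a transposon and a site at a CpG-richer end both escaped SmaI.

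**Figure D1:**
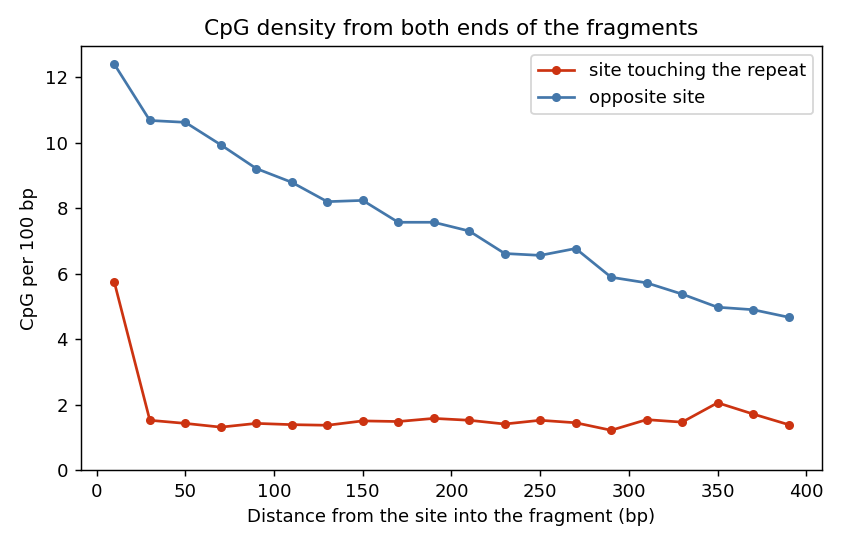
CpG dinucleotides per 100 bp against the distance from each cut site into the fragment, averaged in 20 bp steps over the 262 fragments of 800 bp or more. Beyond the first step, which holds the site's own CpG, the repeat end stayed between 1.22 and 2.06, while the opposite end fell from 10.7 to 4.67.

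The ends of 5 fragments are shown because the results turn on them: Haus4 and Zkscan16 gave far more reads in muscle than in ESC, and Kat2a, Tmem2 and Anapc7 did not follow them. Each is the 60 bases at an end, with the cut site, read 5′ to 3′ on the plus strand of mm9, with CpG dinucleotides in capitals. They were chosen after the values were seen, and for Anapc7 the repeat end alone is given.
Haus4 repeat end, chr14:55173967-55174026: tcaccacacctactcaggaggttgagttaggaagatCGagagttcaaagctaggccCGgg
Haus4 opposite end, chr14:55173223-55173282: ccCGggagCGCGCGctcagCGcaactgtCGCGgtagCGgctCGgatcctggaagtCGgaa
Zkscan16 repeat end, chr4:58955685-58955744: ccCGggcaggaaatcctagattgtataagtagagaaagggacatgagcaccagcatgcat
Zkscan16 opposite end, chr4:58956351-58956410: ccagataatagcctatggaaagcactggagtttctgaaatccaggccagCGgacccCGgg
Kat2a repeat end, chr11:100568953-100569012: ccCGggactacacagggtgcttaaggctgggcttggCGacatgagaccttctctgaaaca
Kat2a opposite end, chr11:100569794-100569853: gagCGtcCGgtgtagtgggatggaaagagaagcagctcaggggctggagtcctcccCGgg
Tmem2 repeat end, chr19:21865861-21865920: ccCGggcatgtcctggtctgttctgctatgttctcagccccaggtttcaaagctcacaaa
Tmem2 opposite end, chr19:21867170-21867229: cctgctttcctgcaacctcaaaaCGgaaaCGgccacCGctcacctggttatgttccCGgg
Anapc7 repeat end, chr5:122870613-122870672: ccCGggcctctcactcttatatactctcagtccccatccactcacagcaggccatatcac
In Haus4 the opposite end held 10 CpGs in 60 bases and the repeat end 2. In Zkscan16 the counts were 2 and 1, so a steep CpG gradient was not shared by every fragment within this distance of the site. The Tmem2, Kat2a and Zkscan16 repeat ends printed lie wholly in the element, whereas the PB1D10 element covers 49 of the 60 bases at Haus4.

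Reads were scarce. Over the 23 libraries the 381 fragments gave 325549 reads, 0.138% of all, with a median of 7 per fragment, and 30 gave none. Only 86 reached 50 reads, and the 10 with the most reads held 58.9% of the total. Short fragments gave most of the reads: 44 fragments under 500 bp held 39.99% of the reads and 114 from 500 bp to under 1000 bp held 48.3%, against 8.87% for 99 from 1000 bp and 2.88% for 124 from 1500 bp. The median per fragment did not fall this way: it was 3, 6.5, 6 and 8.5 reads from the shortest bin to the longest. Next to the upper limit, 57 fragments from 1800 bp summed to 3.93 to 57.2 RPM (reads per 1000000 reads of a library) per library, and 45 just above it to 3.71 to 48.7. At matched lengths of 700 to 1600 bp, the median was 7 reads for 199 of the repeat-carrying island fragments, 3 for 2002 island fragments without a repeat, 1160 for 179 repeat-carrying shore fragments and 3572.5 for 3116 repeat-carrying fragments outside islands and shores. At these lengths, fragments with a repeat at a site and no island end were thus read far more often than those with an island end. Over the whole length range the median was 7 reads for the 381 and 1018 for repeat-carrying shore fragments. It was 3 for repeat-carrying fragments outside islands and shores, whose median length was 156 bp. The shares with no read were 7.87%, 4.34% and 45.5%. These are fragments of the same libraries and carry no test.

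The sum over the 381 fragments had its lowest group mean in ESC and its highest in muscle, and it spread widely within the cultured groups. In RPM it was 249.8 in CGR8, 481 in RD1 and 323 in E14Tg2. Muscle samples 1, 2 and 3 gave 4290, 4754 and 1809, all above every ESC line. The mean was 351 ± 118 (SD, n = 3) in ESC and 3618 ± 1583 (SD, n = 3) in muscle, a ratio of 10.3. The sums are given without a test, since the set was chosen with earlier results known. The 2 CGR8 runs of the same line gave 168 and 372, a 2.21-fold gap within 1 line.

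In the cultured cells the sum differed widely between cultures at the same stage. Culture 21 stayed low, at 252 as myoblasts and 271, 225 and 164 at days 1, 2 and 4. Culture 26 gave 635 at passage 0, 1213 as myoblasts and 714, 780 and 1075 at days 1, 2 and 4. Culture 27 gave 165 at passage 0, 1524 as myoblasts and 4749, 1563 and 4306 at days 1, 2 and 4. Days 1 and 4 of culture 27 were thus in the muscle range, while culture 21 was within or below the range of the ESC lines at each stage measured. Of the 252 RPM in myoblasts of culture 21, the Kat2a fragment gave 97.9 and the Tmem2 fragment 49.0. In CGR8, RD1 and E14Tg2, Kat2a gave 69.5, 90.9 and 94.7 and Tmem2 4.41, 4.17 and 6.93. The never cultured cells gave 1080 without injury and 968 with it, 1 library each and so with no test. The group means were 400 ± 332 (SD, n = 2) at passage 0, 996 ± 663 in myoblasts, 1911 ± 2467 at day 1, 856 ± 673 at day 2 and 1848 ± 2177 at day 4 (SD, n = 3 each).

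Island fragments without a repeat moved with the same libraries. Their sum ran from 1911 to 40413 RPM, a 21.1-fold range beside 29.0-fold for the repeat-carrying ones. The 5 libraries with the highest sums were the same 5 in both, namely the 3 muscle samples and days 1 and 4 of culture 27. Repeat-carrying shore fragments stayed between 8060 and 13477, a 1.67-fold range. The differences between libraries were thus wide for island fragments with and without a repeat and narrow for shore fragments, and their part in the results below was not tested.

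**Figure D2:**
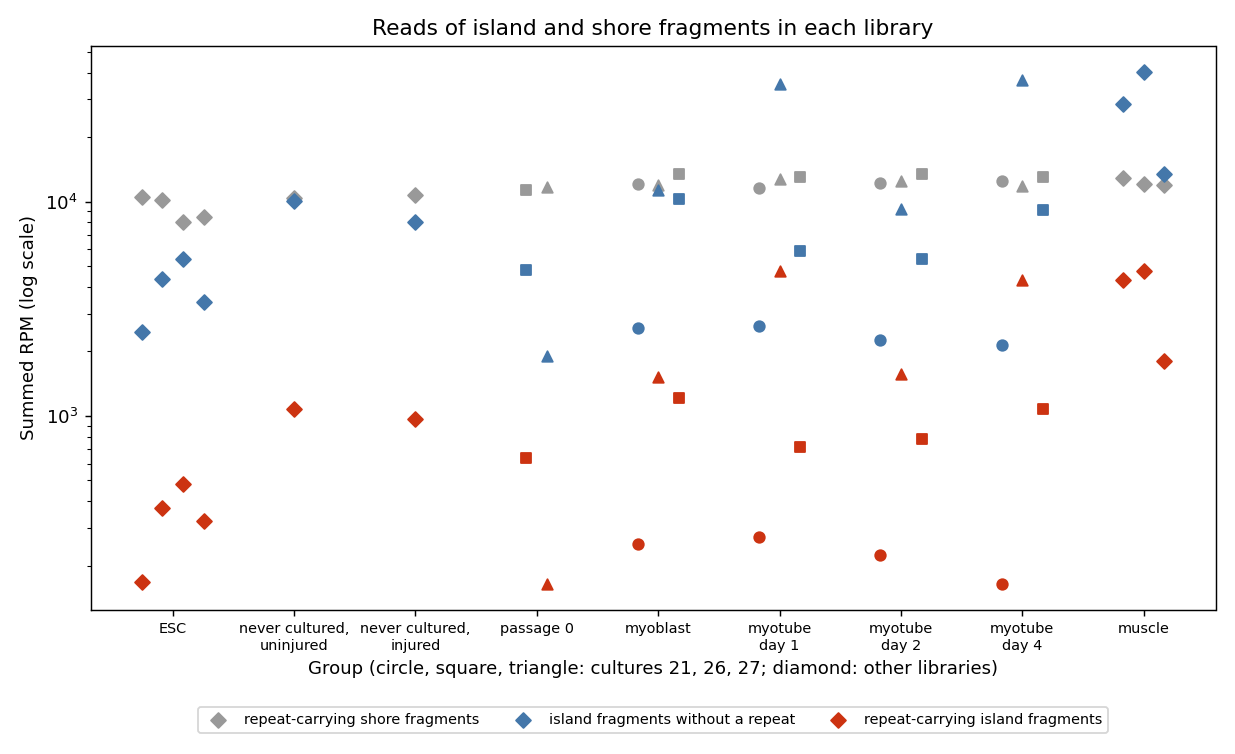
Summed RPM (log axis) of repeat-carrying island fragments (red), island fragments without a repeat (blue) and repeat-carrying shore fragments (grey), each point 1 library, with both CGR8 runs shown. Red points run from 164 to 4754 and blue points from 1911 to 40413, with the same 5 libraries highest in both, while grey points stay between 8060 and 13477.

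Each repeat class was higher in muscle than in ESC, without overlap of samples. SINE fragments averaged 281 ± 97.5 RPM in ESC and 3064 ± 1413 in muscle (SD, n = 3 each), a ratio of 10.9. LTR fragments averaged 62.3 ± 18.8 and 443 ± 123, a ratio of 7.12. LINE fragments averaged 7.72 ± 3.10 and 110 ± 48.0, a ratio of 14.3, but the Ppcs fragment alone gave 95.9 of the 110 and without it the ratio was 3.10. Without their leading fragments the ratios were 6.19 for LTR and 9.71 for SINE. Among families the ratio was 22.3 for Alu, 8.06 for B2, 6.35 for B4, 5.45 for MIR, 11.8 for MaLR, 8.997 for ERV1, and 6.76 for ERVL. Others rested on 1 fragment: the ratio was 19.9 for ID but 4.02 without G3bp1, 3.23 for L1 but 1.35 with overlapping samples without Ssh1, and 29.1 for L2, whose reads in muscle were nearly all from Ppcs (95.9 of 96.0 RPM). ERVK was the exception among these, at 21.9 in ESC and 18.6 in muscle with overlapping samples. Its ESC sum came mostly from 1 fragment at Anapc7, which made up 60.2 to 83.4% of it in ESC and 0.435 to 2.29% in muscle. The B4 sum, and so its ratio, also leaned on 1 fragment. The Kat2a fragment made up 48.2 to 62.9% of the B4 sum in ESC and 1.13 to 4.74% in muscle.

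In muscle against ESC, 63 of the 381 fragments passed the filter on low counts, 54 were called higher and 4 lower by edgeR's quasi-likelihood test at an adjusted p under 0.05 over the whole table. The same test called 24.4% of all 22980 fragments higher and 34.6% lower. The median log2 change was 3.97 for the 63 and -0.34 for all tested. The filter admitted fragments high in 1 group only: 24 of the 63 reached its count minimum in all muscle samples but not in all ESC lines, 4 the other way round and 35 in both. Island fragments without a repeat gave a like picture, with 535 of 617 higher (86.7%), 17 lower and a median of 4.36. Repeat-carrying shore fragments gave 123 higher and 23 lower of 238. Scaled by library totals alone, the median of all fragments moved to -1.14 and that of the 63 to 3.10. By class, 39 of 45 SINE, 12 of 15 LTR and 3 of 3 LINE fragments were called higher, and 3 SINE and 1 LTR fragment lower.

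Among the 54 fragments higher in muscle, a promoter fragment of Haus4 had the smallest adjusted p. At Haus4, a subunit of the augmin complex of the spindle, a 798 bp fragment with a PB1D10 element (chr14:55173226-55174023) had 1 read over the 3 ESC lines and 32.7, 61.7 and 25.4 RPM in muscle. With 1162 reads in muscle the ratio was 1674 (95% exact binomial interval 299.8 to 66167, counting error only). It was also at 24.0 and 31.4 in myoblasts of cultures 27 and 26 but at 0.362 in culture 21.

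At Cops7a, a subunit of the COP9 signalosome, a PB1D7 fragment (chr6:124915737-124916359) had 2.12, 5.26 and 2.51 RPM in the ESC lines and 236, 174 and 72.2 in muscle. The log2 change was 6.52 ± 0.66 (SE, edgeR adjusted p = 4.75e-05). G3bp1, which encodes a stress granule protein, had an ID4_ fragment (chr11:55283664-55284360) with only 5 bp of the element in it. This fragment was at 1.67, 2.68 and 2.75 in ESC and 185, 175 and 45.4 in muscle, a log2 change of 6.76 ± 0.69 (SE, edgeR adjusted p = 5.01e-05). In both, the groups did not overlap.

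The leading fragment of each class was the one with the highest mean RPM over the 9 groups. That choice favours fragments high in muscle, so their muscle values are a description and no support. The leading LINE fragment was an L2c at Ppcs (chr4:119093946-119094581), an enzyme of coenzyme A synthesis, with 2.16, 4.86 and 2.27 in ESC and 112, 128 and 47.6 in muscle. The leading LTR fragment was an MTE2b at the zinc finger gene Zkscan16 (chr4:58955688-58956407), with 12.6, 20.9 and 11.7 in ESC and 150, 164 and 139 in muscle. The leading SINE fragment was a B1F between genes (chr15:81353127-81353476), with 7.14, 30.5 and 13.1 in ESC and 629, 690 and 171 in muscle. All 3 sets of muscle values lay above the ESC values, and the B1F fragment also reached 666 in culture 27 at day 1.

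The 4 fragments lower in muscle than in ESC were few but large in some cases. At Anapc7, a subunit of the anaphase-promoting complex, an ERVK fragment with RLTR10A that contains the transcript start (chr5:122870616-122872522) had 11.8, 28.0 and 9.55 RPM in ESC and 0.277, 0.111 and 0.299 in muscle. The log2 change was -5.27 ± 0.67 (SE, edgeR adjusted p = 0.00018). A B1_Mm fragment at 1110049F12Rik (chr4:135542842-135544604) had 115 reads in ESC and 1 in muscle, a 79.8-fold difference (95% exact binomial interval 14.05 to 3181). At Kat2a, the histone acetyltransferase GCN5, an ID_B1 fragment over an exon (chr11:100568956-100569850) had 69.5, 90.9 and 94.7 in ESC and 14.3, 14.9 and 22.1 in muscle, a log2 change of -1.50 ± 0.32 (SE, edgeR adjusted p = 0.00308). An ID_B1 fragment in an intron of Lims2, a focal adhesion gene on chromosome 18, had 1.06, 6.74 and 4.06 in ESC and 0.462, 0.557 and 0.498 in muscle, and its call was lost in 7 of the alternatives.

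In myoblasts against ESC, 61 fragments were tested, 6 were called higher (9.84%) and 1 lower (1.64%), beside 8.22% and 11.7% of all 25152 fragments. The share called higher was thus near that of all fragments. The median log2 change was 1.75 for the 61 and -0.08 for all. Island fragments without a repeat gave 27 of 523 higher (5.16%), 10 lower and a median of 1.57. Of the 61, 20 reached the filter's count minimum in all ESC lines but not in all myoblasts, 2 the other way round and 19 in both. The count differed with the culture left out: without culture 21, 43 of 64 were higher, and without culture 26 or without culture 27, 3 were. Scaled by library totals, 3 were higher.

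The clearest of the 6 was an RLTR1B fragment, an ERV1 element, over an exon of Tmem2 (chr19:21865864-21867226), which encodes a cell surface hyaluronidase. It had 4.41, 4.17 and 6.93 RPM in ESC and 49.0, 45.0 and 58.7 in myoblasts of cultures 21, 26 and 27. The log2 change was 3.52 ± 0.46 (SE, edgeR adjusted p = 0.000569). Passage 0 was at 47.2 and 53.4, never cultured cells at 21.6 and, after injury, 42.1, and muscle at 4.44, 3.57 and 9.16. Culture 21, low in the sum over all fragments, was not low here. The fragment made up 21.2 to 63.3% of the LTR sum in the myoblast libraries and 4.90 to 73.3% at day 4, against 0.658 to 2.99% in muscle.

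A pair of RMER17D fragments on chromosome 12 had next to no reads in ESC. The one at Gm6802 (chr12:19496641-19497771) had 1 read in ESC and 91 in myoblasts, a ratio of 138 (95% exact binomial interval 24.1 to 5497). The one between genes (chr12:20077991-20079120) had 0 and 60, at least 30.3-fold higher against a floor of 3 reads over the ESC group. In muscle the second had 49 reads, at least 23.5-fold higher on the same floor. The 2 sequences were 99.6% identical, so reads could be split between them and each value is uncertain. All 3 ESC lines are 129 strains and all myoblasts C57BL/6J, so strain and cell type cannot be told apart here. The L2c fragment at Ppcs had 2.90, 32.1 and 28.6 in cultures 21, 26 and 27 and passed at an edgeR adjusted p = 0.0291, but its p ran above 0.05 without any single ESC line and without culture 26 or 27. The 1 lower fragment was again that at Anapc7, with 0.0906, 0.911 and 2.27 in cultures 21, 26 and 27, a log2 change of -3.86 ± 0.85 (SE, edgeR adjusted p = 0.0103), lost without culture 26 (edgeR adjusted p = 0.0686).

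In muscle against myoblasts, 62 fragments were tested, 22 were called higher and 4 lower, beside 13.7% and 17.4% of all 20274 fragments (31.1% in either direction). The median log2 change was 2.11 for the 62 and -0.13 for all, and 225 of 629 island fragments without a repeat (35.8%) were higher. Here too the filter admitted fragments high in 1 group only. Of the 62, 39 reached its count minimum in all muscle samples but not in all myoblasts, 3 the other way round and 18 in both. The calls and the median are thus tilted towards fragments high in muscle. Scaled by library totals, 6 were higher and 4 lower, with medians of 1.38 for the 62 and -0.65 for all. The calls also depended on single libraries: without muscle sample 1 or without muscle sample 2 no fragment of the whole table passed, with 36 and 29 of the repeat-carrying island fragments at an unadjusted p under 0.05. Those samples are the 2 of 129Sv/C57BL/6J strain, while the myoblasts are C57BL/6J, so here too strain differs in part between the groups, and its part was not tested. This comparison shares its muscle libraries with the first and its myoblast libraries with the second, so the 3 are not independent.

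Of the 5 fragments higher in muscle than in myoblasts with the smallest adjusted p, 4 carried LTR elements. Of all 22 called higher, 14 carried a SINE (of 45 tested), 6 an LTR element (of 14) and 2 a LINE (of 3). An RMER15 fragment at Spdya (chr17:71901827-71902367), a CDK activator, had 0.453, 1.04 and 1.86 in cultures 21, 26 and 27 and 13.6, 7.02 and 6.47 in muscle, a log2 change of 3.64 ± 0.69 (SE, edgeR adjusted p = 0.0121). An RMER21A fragment at A730011L01Rik (chr11:119353278-119353747) had 1.18, 2.47 and 6.51 and then 38.2, 15.8 and 25.9. An RLTR4_Mm fragment over the start of D17H6S56E-5 (chr17:35137270-35137802) had 0.725, 9.24 and 17.5 and then 80.3, 118 and 29.5. In each, the highest culture was 27 and stayed below the lowest muscle sample, but as myotubes culture 27 reached muscle levels in each: 7.70 and 9.498 at days 1 and 4 for Spdya, 35.2 and 17.0 for A730011L01Rik and 97.4 and 64.6 for D17H6S56E-5.

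The 4 lower ones included Tmem2, Kat2a and Lims2 again. For Tmem2 the log2 change was -2.70 ± 0.51 (SE, edgeR adjusted p = 0.0121), so that ESC and muscle were both low and the precursor cells high. ESC and muscle did not pass for it (log2 0.93 ± 0.47, SE, edgeR adjusted p = 0.112). For Kat2a cultures 21, 26 and 27 gave 97.9, 155 and 70.4 RPM, all above the 3 muscle samples, a log2 change of -2.19 ± 0.52 (SE, edgeR adjusted p = 0.0168). A MIR3 fragment at Epha2 (chr4:140863204-140864492), an ephrin receptor, had 3.44, 10.5 and 10.2 in the cultures and 0.370, 0.780 and 2.59 in muscle. The ESC lines were at 1.55, 2.68 and 4.06 for Epha2 and overlapped the muscle samples. Of the 15 named calls in this comparison, 12 were lost without culture 26.

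**Figure D3:**
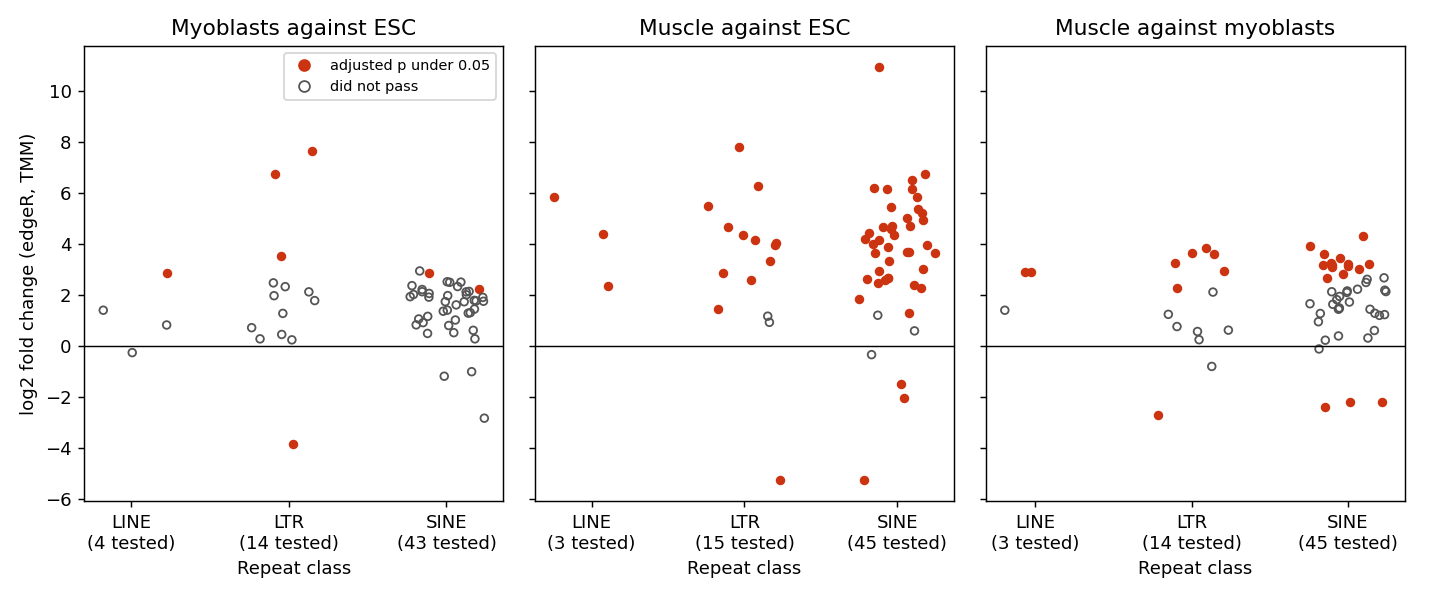
Log2 fold changes from edgeR of the tested fragments by repeat class in 3 comparisons that share libraries, filled where the adjusted p was under 0.05. Most points lie above 0 in each panel, with medians of 1.75, 3.97 and 2.11, and the filled points below 0 number 1, 4 and 4.

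**Figure D4:**
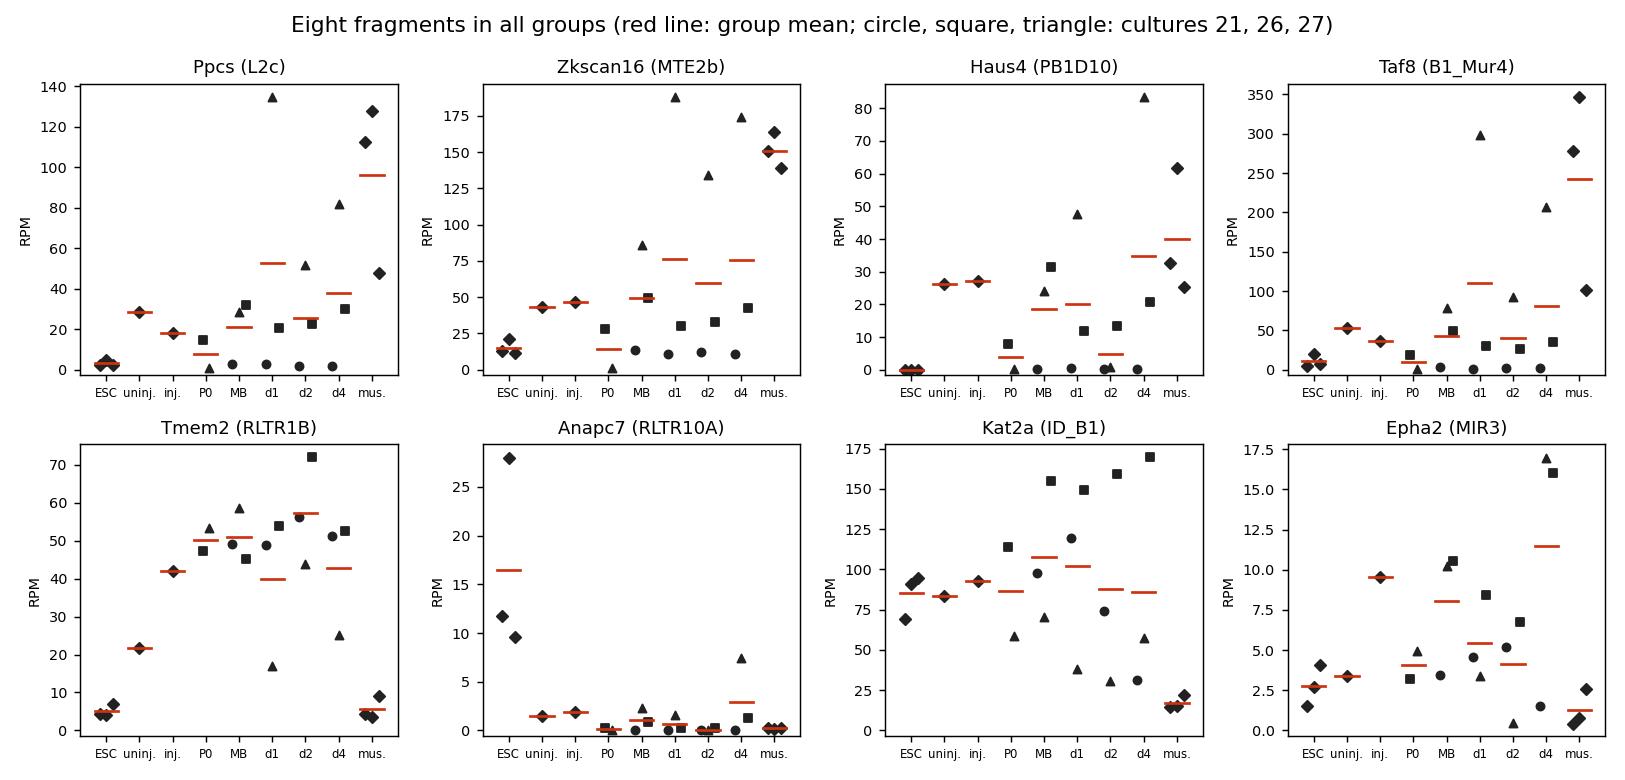
RPM of 8 fragments in ESC, never cultured cells without (uninj.) and with (inj.) injury, passage 0 (P0), myoblasts (MB), myotubes at days 1, 2 and 4 and muscle (mus.), each point 1 sample and the red line the group mean. The upper 4 are high in muscle and in culture 27 at days 1 and 4, whereas Tmem2 is high in precursor cells and low at both ends. Anapc7 is high in ESC and Kat2a is low in muscle. Epha2 is low in muscle, where its samples overlap those of ESC.

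In day 4 myotubes against myoblasts, 64 fragments were tested and 0 were called by edgeR, beside 0% of all 22438 fragments. At an unadjusted p under 0.05 there was 1 such fragment, and DESeq2 called 0, with 5 at an unadjusted p under 0.05. With the culture as a block edgeR again called 0 of them, beside 0.174% of all fragments called higher. The ratio of the summed reads was 1.86, and without culture 27 at day 4 its log2 value turned from 0.89 to -0.69. With culture 27 left out of both groups, an alternative added after seeing the data, it was -0.24. Within cultures the sum was lower at day 4 in 21 (252 to 164) and 26 (1213 to 1075) and higher in 27 (1524 to 4306). Tmem2 gave 51.2, 52.5 and 25.0 in cultures 21, 26 and 27 at day 4, which overlapped the myoblasts.

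In myoblasts against passage 0, 59 fragments were tested and 0 were called by edgeR, beside 0% of all 23419. At an unadjusted p under 0.05 there were 3, and DESeq2 called 0, with 4 at an unadjusted p under 0.05. In the 2 cultures with both stages, with the culture as a block, 24 of 58 were called higher and 0 lower, beside 3.99% and 0.703% of all 22202 fragments. That fit has a single library per culture and stage. Its p-values therefore rest on spread shared over fragments and hardly on each fragment's own. In that fit a 310 bp MIR fragment at Rps18, a ribosomal protein gene (chr17:34093072-34093381), went from 7.37 to 50.4 in culture 26 and from 0.109 to 20.2 in culture 27 (edgeR adjusted p = 0.000213). A 403 bp B1_Mur4 fragment at Taf8, a TFIID subunit (chr17:47638666-47639068), with 18 bp of the element in it, went from 18.4 to 48.9 and from 1.09 to 77.9. Both rose in both cultures. The fold was larger in culture 27 for both, though in RPM Rps18 rose by more in culture 26. The passage 0 library of culture 27 had the lowest island sum without a repeat of all libraries, 1911 RPM. These fragments were named after their values were seen.

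The lists of developmental genes held few of the fragments. The imprinted, germ line and HOX lists held 38, 24 and 60 island fragments of this length on chromosomes 1 to 19, and 0 of these carried a repeat. The 381 fragments are 2.69% of all 14146 such island fragments, so lists of this size would hold few in any case. The pluripotency list held 1, at Klf2, a Krüppel-like factor, with 1 read, and the myogenic list 1, at Des, the intermediate filament protein desmin, with 1 read. Neither could be compared at this depth.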

How the data were processed

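AIMS-seq libraries, 23 in all, were read on the GA2 platform of Illumina; the labels' protocols give mm9 as the genome, and Bowtie 0.11.3 and DESeq appear in the submitters' processing notes. The values used are raw counts of reads for each fragment, deposited by the authors in 1 table together with their CpG and repeat annotation. All 23 columns of counts were mapped to samples, and the other deposited files were not used. RPM levels, computed from the deposited counts, used the library totals. Genes came from GENCODE M1 on mm9, for fragments in a gene or the 2000 bp upstream of it.

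Counts of the whole table were tested with edgeR 4.0.16 (R 4.3.3; TMM scaling, filterByExpr at 10 counts, quasi-likelihood test, Benjamini-Hochberg adjustment at 0.05), after a check on simulated data. Each comparison was fitted on its own groups. DESeq2 1.42.0, library totals, no filter, the fragments of 21 bp to under 2000 bp on chromosomes 1 to 19 alone, separate CGR8 libraries, a replicate block and leaving out each sample were the alternatives. Culture numbers in the titles pair myoblasts with day 4 (correlations of deviations 0.852, 0.652 and 0.699 for cultures 21, 27 and 26) and with passage 0 (0.284, a single value, since with 2 cultures the deviations mirror each other). Named fragments are up to 5 called ones per comparison and direction with the smallest adjusted p, the fragment with the highest mean level per class, and members of the gene lists; not all of them are described. The members and lists were chosen with earlier results of these data known. The planned rule for sequences, whole fragments of at most 300 bp, was replaced by 60-base ends. PCR reads carry no molecular identifiers, so intervals cover counting error only.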

Additional observations from a re-analysis of the deposited data

How the results depend on the processing

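In muscle against ESC, 48 to 57 fragments were higher under the other tools, scalings and filters, with 52 to 58 of the 58 calls shared, and 52 to 54 were higher and 3 to 4 lower with any sample left out, while without the filter 8 were lower. Myoblasts against ESC gave 19 higher and 2 lower with DESeq2, 3 higher with library totals, 21 higher and 2 lower without the filter, and 3 to 43 higher and 0 to 2 lower with a sample left out, the 43 without culture 21. Muscle against myoblasts gave 34 higher with DESeq2, 6 higher with library totals, 2 lower without the filter, and 0 to 26 higher and 0 to 4 lower with a sample left out, both at 0 without muscle sample 1 or 2. With the number as a replicate block, which is no pairing here since ESC, cultures and muscle share only a number, it gave 2 higher and 1 lower. Myoblasts against passage 0 gave 24 higher with the culture as a block, where the pairing comes from the culture, with a single library per culture and stage. For the 2 fragments marked island alone, the log2 ratio of sums was 2.36 for muscle against ESC and 3.49 for myoblasts against passage 0. The cause was not tested in any of these. The 41 named calls, each refitted under every alternative of its comparison (477 refits), passed in 386 refits and not in 91, and 22 of the 41 passed in all: 19 of 20 in muscle against ESC (not Lims2), 3 of 6 in myoblasts against ESC and 0 of 15 in muscle against myoblasts. No named call changed sign. Of the counts and sums, 131 values under an alternative stayed near the reported one and 26 did not, and those are given above, as ranges where a sample was left out. Depth limits most fragments: 295 of 381 had under 50 reads in all.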
